A study of Rattus norvegicus with 5 samples.

Results

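The choroid plexus is a folded sheet of epithelium that hangs into the brain ventricles, next to the hippocampus, and makes cerebrospinal fluid. A set of 10 genes known from this epithelium was followed in rat hippocampus: Ttr, Enpp2, Sostdc1, Aqp1, Slc4a2, Prlr, Msx1, Krt8, Krt18 and Calml4. Every probe set annotated to exactly 1 of these symbols was taken, which gave 18 of the 8740 probe sets on the array that are not controls, which name 4736 genes. Of these 18, 13 passed an intensity filter that kept 5244 probe sets in all, and each of the 10 genes kept at least 1. The genes were selected from a result of these same arrays, a lower signal of the list after fetal alcohol, so their differences between fetal alcohol and the other diets are given as a description, without a test.

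Total RNA of hippocampus was measured on 5 single-colour arrays: 2 from rats exposed to alcohol before birth, 1 from the isocaloric diet, a feeding control, and 2 from the control diet. All were labelled P5. The sources used here give no dose or timing of alcohol, no strain and no sex. They also do not tell if each array had its own animal or a pool, and p-values then measure only the spread between these arrays, which may be technical. The values are deposited intensities in linear units, with 2% trimmed means between 150.19 and 150.22 on all 5 arrays. Their small number sets the precision. Of 17 hippocampal and general neuron markers with a probe set, 16 passed the filter. Among them the growth cone protein Gap43 measured 2568 and 3069 after fetal alcohol, 2699 on the isocaloric diet and 3029 and 2563 on the control diet. The filter kept 5244 of 8740 probe sets, and the list holds general neuron markers, so it cannot tell hippocampus from other brain tissue. Camk2a, a kinase of mature excitatory neurons, was under the filter, with 8.17 to 40.6.

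As background, the plexus epithelium secretes proteins into the fluid, moves water and ions across its apical and basal membranes, and carries receptors that take hormones from the blood. Transthyretin, encoded by Ttr, is its leading secreted product and binds thyroid hormone and retinol-binding protein. Neurons and glia make little of it, and Ttr is commonly used as a marker of plexus tissue. In bulk RNA, fewer cells of a type and less RNA per cell cannot be told apart.

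Of the secreted factors, Ttr had the largest difference of the 10 genes. Its first probe set, rc_AA945169_at, measured 1004 and 69.2 after fetal alcohol, 5391 on the isocaloric diet and 5297 and 4886 on the control diet. Both fetal alcohol arrays thus lay far below the other 3, and they were also far apart from one another: array 1 held 19.7% of the control diet mean and array 2 held 1.36%. The second probe set, rc_AA945169_g_at, also had both fetal alcohol arrays below the other 3, with 1276 and 19.3 after fetal alcohol, 5745 on the isocaloric diet and 6228 and 5728 on the control diet. There the percentages of the control diet mean were 21.3% on fetal alcohol array 1 and 0.323% on array 2. The 2 probe sets carry 1 accession and are not independent measurements of the transcript.

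On the scale of log2(intensity + 10.605), used for all fitted differences, fetal alcohol minus control diet was -4.16 ± 0.92 (SE) and -4.93 ± 1.35 for the 2 Ttr probe sets. This offset, the 20th percentile of the intensities, makes the difference of a dim value smaller. Single arrays set the size of this difference: without fetal alcohol array 1 it was -6.00 and -7.64, and without fetal alcohol array 2 it was -2.33 and -2.22. A further probe set, rc_AI102562_at, is annotated to Mt1f and Mt1, metallothioneins, as well as to Ttr, and was therefore not counted. It measured 327 and 305 after fetal alcohol, 370 on the isocaloric diet and 581 and 463 on the control diet, so there the isocaloric array lay below both control diet arrays. It was above both at rc_AA945169_at and between them at rc_AA945169_g_at.

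The bases before the annotated start of Ttr are shown because this is the gene with the largest difference, and those of the water channel gene Aqp1 for comparison. They come from RefSeq on build GRCr8, plus strand, 250 bases each, at chr18:12218508-12218757 for Ttr and chr4:85812534-85812783 for Aqp1. Capitals mark the single match to TATTGAC (a forkhead-type core, here on the minus strand) in Ttr and to TATAAA (the TATA box core) in Aqp1.
Ttr: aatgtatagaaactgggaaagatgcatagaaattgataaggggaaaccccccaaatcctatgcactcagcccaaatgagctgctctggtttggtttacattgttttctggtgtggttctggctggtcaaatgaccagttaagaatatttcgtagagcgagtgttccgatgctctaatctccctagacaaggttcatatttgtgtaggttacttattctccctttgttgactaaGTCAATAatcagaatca
Aqp1: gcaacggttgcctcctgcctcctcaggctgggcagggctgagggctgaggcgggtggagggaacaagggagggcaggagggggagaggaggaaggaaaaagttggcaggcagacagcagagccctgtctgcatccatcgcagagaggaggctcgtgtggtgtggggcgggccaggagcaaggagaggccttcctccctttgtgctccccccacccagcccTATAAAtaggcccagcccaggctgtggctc

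Windows were found for 8 of the 10 genes, 9 windows in all, and Sostdc1 and Enpp2 are named only. The cores GGATTA (bicoid-type homeodomain), TGTTTAC and TGTTTGC (forkhead) and CAATTA (Msx-type homeodomain), searched on both strands, matched 0 of these 9 windows, and they occur in 6.34%, 3.21%, 4.16% and 7.31% of all 33469 windows of that length. TATTGAC, which was picked after the windows had been read, matched Ttr and 1.28% of all windows. TATAAA, picked in the same way, matched Aqp1 and Krt8 and 12.9% of all windows. A match is a description of the letters and not a binding site.

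Enpp2 encodes autotaxin, a secreted enzyme that makes the signalling lipid lysophosphatidic acid. At D28560_at it measured 85.2 and 72.6 after fetal alcohol, 211 on the isocaloric diet and 145 and 196 on the control diet. At D28560_g_at it measured 33.1 and 44.4 after fetal alcohol, 228 on the isocaloric diet and 113 and 146 on the control diet. Neither probe set overlapped between fetal alcohol and the other diets, and the fetal alcohol arrays lay close together, unlike for Ttr. Fetal alcohol minus control diet was -1.0 ± 0.25 and -1.51 ± 0.25. The 2 probe sets share 1 accession.

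Sostdc1, also called Wise, is a secreted antagonist of bone morphogenetic proteins that also acts on Wnt signalling. It measured 42.2 and 71.8 after fetal alcohol, 329 on the isocaloric diet and 133 and 137 on the control diet. The 3 groups were separate, with the isocaloric array at 244% of the control diet mean and the fetal alcohol arrays at 31.2% and 53.1%. The log2 difference from control diet after fetal alcohol was -1.14 ± 0.27. The order of the fetal alcohol arrays was opposite to that of Ttr: for Sostdc1 array 1 was the lower.

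Among the genes of water and ion transport, Aqp1 encodes the water channel of the apical membrane. It measured 25.3 and 35.1 after fetal alcohol, 107 on the isocaloric diet and 79.5 and 86.5 on the control diet. The groups did not overlap, array 1 was again the lower of the fetal alcohol pair, and the log2 difference from control diet was -1.21 ± 0.24. Aqp1 averaged 30.2 ± 6.89 after fetal alcohol and 83.0 ± 4.99 on the control diet (SD, n = 2 each).

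Slc4a2 encodes the anion exchanger of the basolateral membrane, which swaps chloride for bicarbonate. Its brighter probe set, J05166_g_at, measured 217 and 156 after fetal alcohol, 183 on the isocaloric diet and 242 and 222 on the control diet. Fetal alcohol lay below control diet by little there (-0.32 ± 0.25), and the isocaloric array fell inside the fetal alcohol range. The dimmer J05166_at, under the filter, measured 19.98 and 11.0 after fetal alcohol, 25.9 on the isocaloric diet and 61.2 and 28.7 on the control diet. Control diet array 1 stood apart at this probe set.

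**Figure D1:**
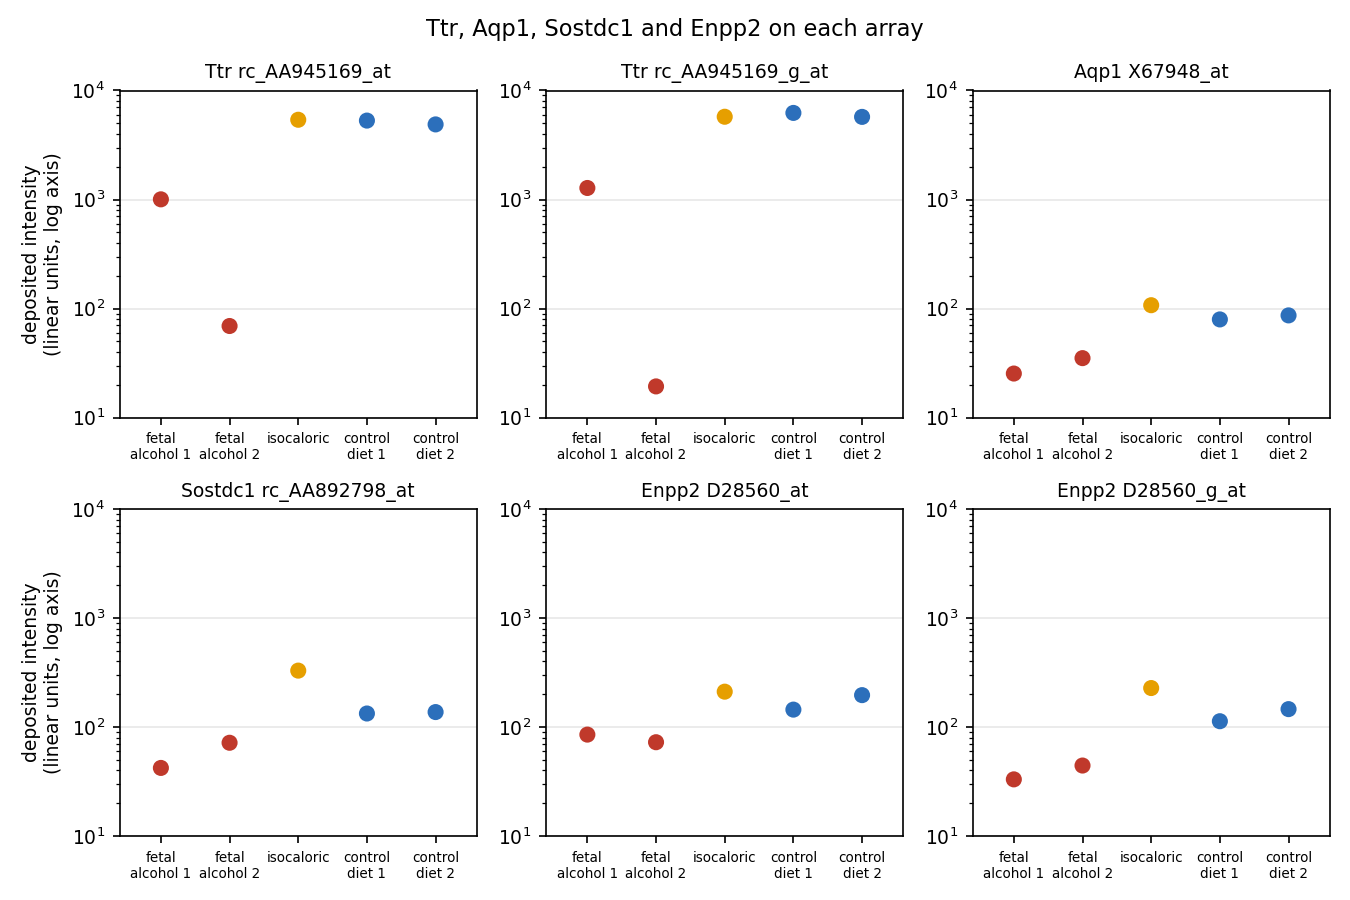
Deposited intensity (log axis) of the 6 probe sets of Ttr, Aqp1, Sostdc1 and Enpp2 on each of the 5 arrays, 1 point per array. Both fetal alcohol points lie below the isocaloric and control diet points in every panel, and the Ttr points of fetal alcohol arrays 1 and 2 are far apart, at 1004 and 69.2 at the first probe set.

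The receptor gene Prlr, for prolactin, which the plexus carries into the fluid, had no difference between groups beyond the spread of the arrays. At U34897mRNA_at it measured 44.9 and 38.9 after fetal alcohol, 37.0 on the isocaloric diet and 39.6 and 41.4 on the control diet. At L48060_s_at it measured 38.4 and 37.5 after fetal alcohol, 37.9 on the isocaloric diet and 48.1 and 30.6 on the control diet. The fetal alcohol values lay inside the control diet range at the second of these and around it at the first, with log2 differences of 0.04 ± 0.24 and -0.02 ± 0.27. The 3 other Prlr probe sets were under the filter, and 2 of them, M19304_at and M34083_at, were below the offset on all 5 arrays. They carry no order.

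Msx1, a homeodomain transcription factor, measured 121 and 48.1 after fetal alcohol, 219 on the isocaloric diet and 109 and 214 on the control diet. Array pairs of both groups were wide and overlapped, so its log2 difference of -0.90 ± 0.42 is not larger than the spread between arrays. It was -0.44 without control diet array 2 and -0.31 without fetal alcohol array 2, against -1.35 and -1.48 without the other array of each pair.

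Krt8 and Krt18 encode the keratin pair of simple epithelia. Krt8 measured 56.6 and 39.9 after fetal alcohol, 90.5 on the isocaloric diet and 55.8 and 62.1 on the control diet. Fetal alcohol array 1 lay inside the control diet range, and the log2 difference was -0.25 ± 0.25. Krt18 at X81448cds_at measured 37.1 and 35.2 after fetal alcohol, 68.0 on the isocaloric diet and 48.6 and 43.2 on the control diet, a small difference without overlap of -0.27 ± 0.23. The second Krt18 probe set, rc_AI072634_at, was under the filter, with 14.4 and 16.0 after fetal alcohol, 88.6 on the isocaloric diet and 28.3 and 35.3 on the control diet. In both keratins the isocaloric array was the highest of the 5.

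Calml4, a calmodulin-like protein, measured 78.5 and 44.7 after fetal alcohol, 88.5 on the isocaloric diet and 78.6 and 62.5 on the control diet. The groups overlapped, and the log2 difference was -0.20 ± 0.29. It changed sign when arrays were left out, between -0.55 and 0.14.

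Over the 13 probe sets past the filter, 6 were lower on both fetal alcohol arrays than on both control diet arrays by at least 1.5-fold, those of Ttr, Enpp2, Sostdc1 and Aqp1, and 0 were higher. Of all 5244 probe sets, 3.91% were lower and 1.54% higher by this count. For this and later counts, the 1.5-fold size is that of the difference between group means in log2, with the offset. Without the condition of size, 8 of the 13 were lower without overlap, against 17.7% of all. The median log2 difference of the 13 was -0.90, with 12 negative, and that of all probe sets was 0.00, with 49.5% negative. Since this contrast chose the genes, nothing is read from these counts. The median moved to -0.44 without control diet array 2 and to -0.54 without fetal alcohol array 2. In the limma fit, 0 of all 5244 probe sets (0.0%) had an adjusted p under 0.05 in this contrast, and 294 had an unadjusted p under 0.05.

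Against control diet, the fetal alcohol values of the 10 genes were split by size. Ttr, Enpp2, Sostdc1 and Aqp1 were lower on both fetal alcohol arrays by at least 1.5-fold at every probe set. Krt18 and Slc4a2 were also lower on both at every probe set, but past the filter by less than 1.5-fold. On fetal alcohol arrays 1 and 2 their dimmer probe sets, under the filter, lay at 45.15% and 50.3% (Krt18) and 44.5% and 24.5% (Slc4a2) of the control diet mean. Prlr, Slc4a2, Krt8, Krt18 and Calml4 were within 1.5-fold of control diet at every probe set past the filter, and Msx1 overlapped with control diet. Within the first 4, Ttr was the lower on fetal alcohol array 2 by -3.67 and -5.43 on the log2 scale (array 2 minus array 1). Aqp1, Sostdc1 and Enpp2 at D28560_g_at were instead the lower on array 1, with 0.35, 0.64 and 0.33, and Enpp2 at D28560_at had -0.20. The corresponding differences between the control diet arrays (array 2 minus array 1) were -0.12 and -0.12 for Ttr, 0.11 for Aqp1, 0.04 for Sostdc1, and 0.41 and 0.34 for Enpp2.

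**Figure D2:**
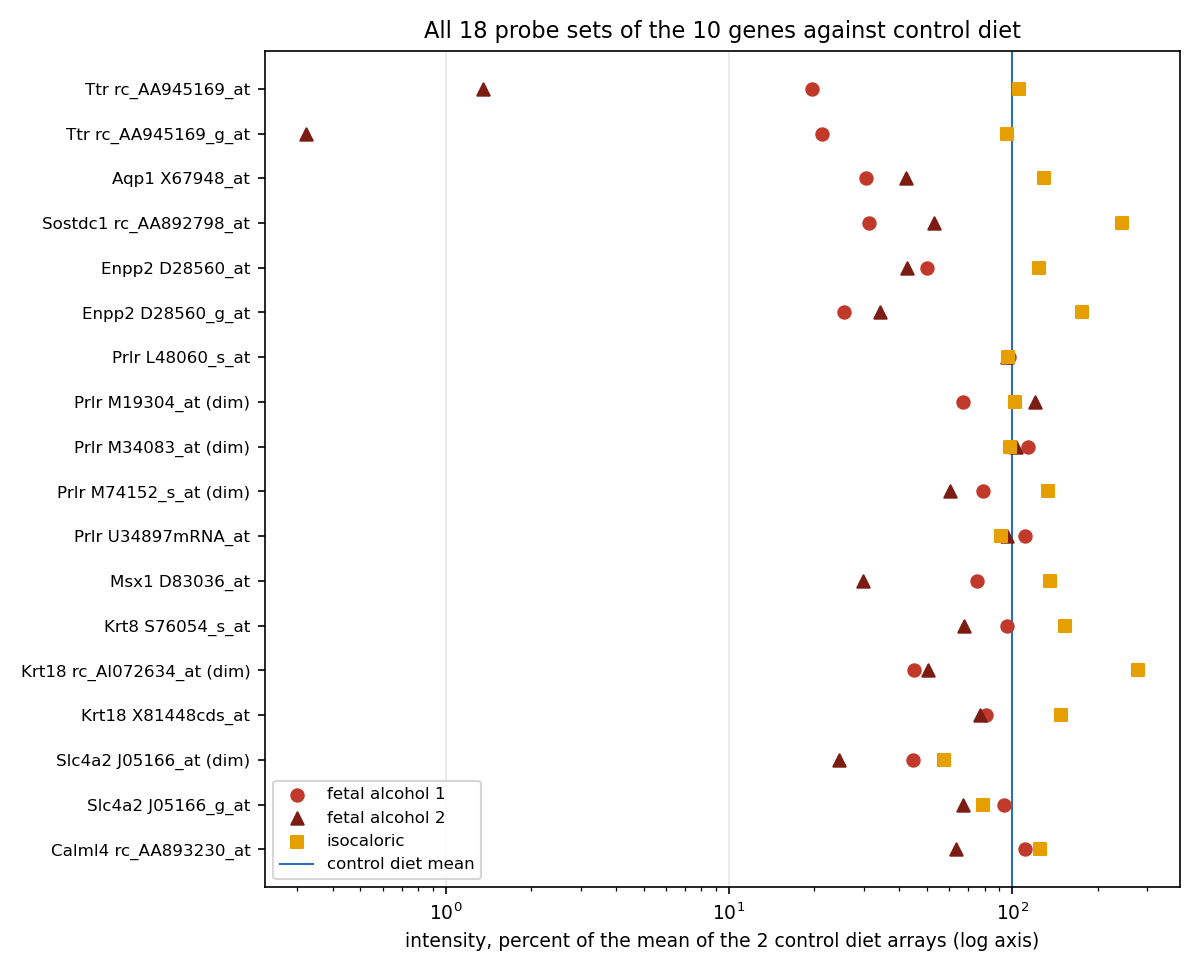
Intensity of all 18 probe sets on the fetal alcohol arrays and the isocaloric array as a percentage of the control diet mean (log axis). Probe sets marked dim did not pass the filter. The Ttr probe sets reach 1.36% and 0.323% on fetal alcohol array 2, and the isocaloric array lies at 244% for Sostdc1.

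Against the isocaloric array, which has no replicate, 9 of the 13 probe sets were lower on both fetal alcohol arrays by at least 1.5-fold and 0 were higher. Of all probe sets 3.83% were lower and 5.03% higher in this way. Regardless of size, 10 of the 13 were lower, against 28.4% of all, and 1 was higher, against 31.5%. This contrast was also known when the genes were chosen, and it shares the fetal alcohol arrays with the first. The log2 differences were -4.25 ± 1.13 and -4.87 ± 1.65 for Ttr, -2.37 ± 0.33 for Sostdc1 and -1.54 ± 0.29 for Aqp1. For Enpp2 they were -1.31 ± 0.30 and -2.28 ± 0.30. Msx1 with -1.38 ± 0.52, Krt8 with -0.80 ± 0.30 and Krt18 with -0.75 ± 0.28 made up the 9. Calml4 had -0.50 ± 0.35, Slc4a2 0.01 ± 0.31 and Prlr 0.00 ± 0.32 and 0.14 ± 0.29. The median of the 13 was -1.31.

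Isocaloric minus control diet did not itself choose the genes and was tested, but its arrays all served the contrasts that did, so the test is not independent of the choice. Its isocaloric arm is 1 array, assumed to vary like the fetal alcohol and control diet pairs, which gave the spread. It asked whether the 2 alcohol-free diets differed. With limma and Benjamini-Hochberg adjustment over all 5244 probe sets, 0 of the 13 passed, as did 0 of all probe sets (0.0%). At an unadjusted p under 0.05 there were 2 of the 13 and 357 of all. These 2 were Sostdc1, with 1.22 ± 0.33 (adjusted p = 0.538, and 0.0614 to 1.0 over all alternatives), and Enpp2 at D28560_g_at, with 0.78 ± 0.30 (adjusted p = 0.664, and 0.22 to 1.0). They were also the only 2 of the 13 that were higher than both control diet arrays by at least 1.5-fold on the scale with the offset. This count took 4.02% of all probe sets, and 0 of the 13 were lower in this way, against 8.39%. In intensity without the offset, Krt8 also passed this size, at 154% of the control diet mean.

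Ttr measured nearly the same on both alcohol-free diets, with isocaloric minus control diet of 0.08 ± 1.13 (adjusted p = 0.988) and -0.06 ± 1.65 (0.994) in limma. These errors hold the wide spread of the fetal alcohol arrays, since the fit has 1 spread for all groups. The remaining limma differences for isocaloric minus control diet were 0.33 ± 0.29 for Aqp1, 0.54 ± 0.30 for Krt8, 0.48 ± 0.28 for Krt18, 0.49 ± 0.52 for Msx1 and 0.30 ± 0.35 for Calml4. Slc4a2 had -0.33 ± 0.31, and Prlr had -0.02 ± 0.32 and -0.10 ± 0.29. The isocaloric array lay above both control diet arrays at 9 of the 13 probe sets, regardless of size, against 38.3% of all. It lay below both at 2 of the 13, against 37.5% of all, and all 13 share this 1 array. The median difference of the 13 was 0.31, and that of all probe sets 0.02.

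**Figure D3:**
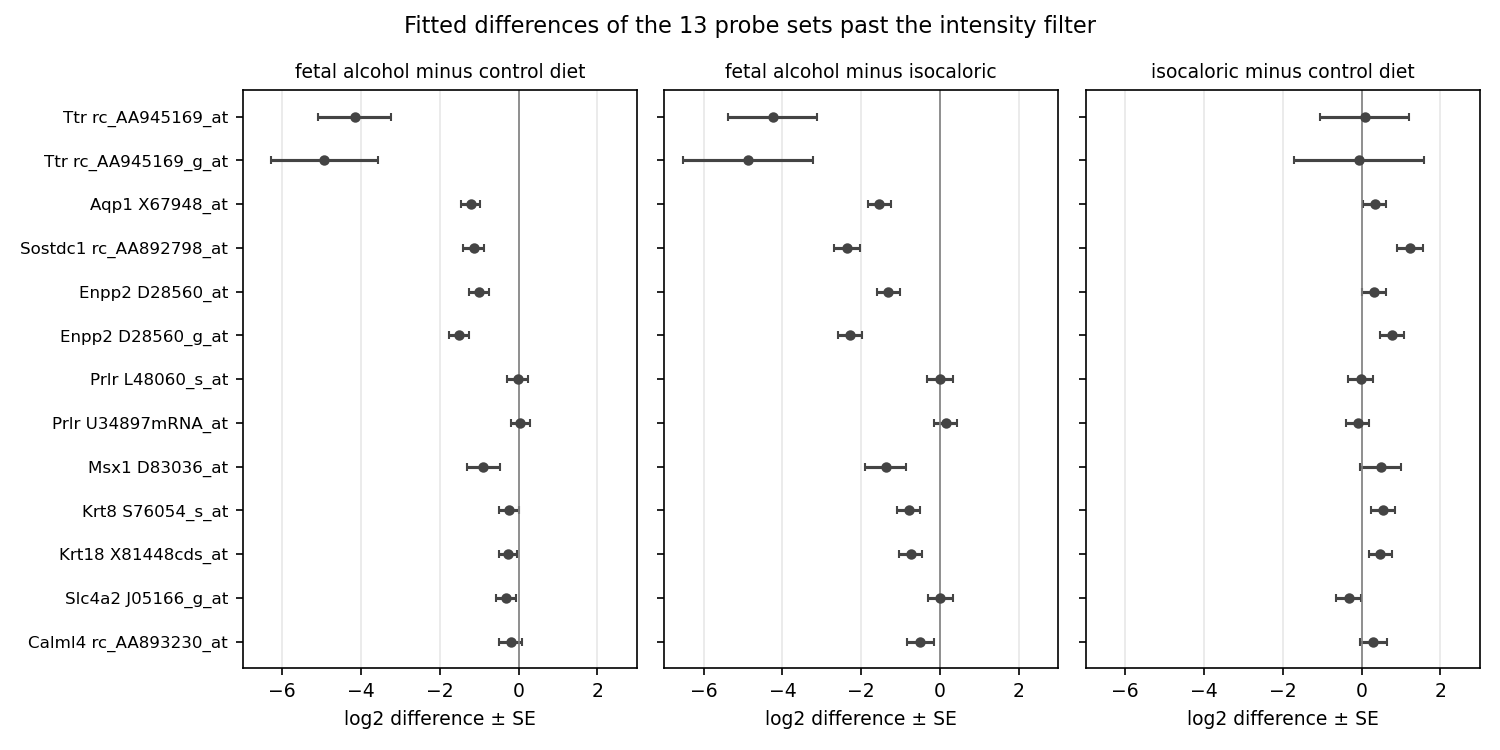
Fitted log2 differences with their standard errors for the 13 probe sets past the filter, in the 3 contrasts (2 fetal alcohol, 1 isocaloric and 2 control diet arrays). Ttr lies at -4.16 and -4.93 in fetal alcohol minus control diet and close to 0 in isocaloric minus control diet, where Sostdc1 is at 1.22.

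Other genes known from the plexus epithelium were read in the same way. Of 48 further genes listed, 22 had a probe set with a single symbol and 14 of these passed the filter. The 22 summed to 6469 and 6079 after fetal alcohol, 7183 on the isocaloric diet and 6975 and 6712 on the control diet. Sums after fetal alcohol were 94.5% and 88.8% of the control diet mean. The largest part of each sum was Atp1b1, a sodium pump subunit. Fetal alcohol minus control diet was negative in 10 of the 14 and positive in 4, with a median of -0.11. By at least 1.5-fold and without overlap, 2 were lower. These 2 were Ace, angiotensin converting enzyme (-0.78 ± 0.23), and Igf2, insulin-like growth factor 2 (-0.74 ± 0.34). Ace measured 54.1 and 63.0 after fetal alcohol, 150 on the isocaloric diet and 99.2 and 117 on the control diet. Igf2 measured 582 and 308 after fetal alcohol, 593 on the isocaloric diet and 592 and 861 on the control diet. It was thus lower mostly on fetal alcohol array 2, and it is also on the meningeal list. Htr2c, the serotonin receptor for which the plexus is a classic source, measured 38.5 and 41.6 after fetal alcohol, 65.0 on the isocaloric diet and 55.9 and 50.7 on the control diet. Its log2 difference was -0.34 ± 0.23, without overlap, and that of Cox8b, a cytochrome oxidase subunit, was -0.27 ± 0.27. Of the 4 positive genes, the transporter Slc15a2 had the largest difference, 0.27 ± 0.25.

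The label of the set could be checked only in part, since several defining plexus genes were dim on every array. Kcnj13, a potassium channel of the apical membrane, measured 1.44 to 4.18 on all 5 arrays, below the offset. Kl, the ageing-related protein klotho, measured 17.6 and 24.0 after fetal alcohol, 29.0 on the isocaloric diet and 21.6 and 24.4 on the control diet, under the filter.

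The genes most like Ttr across the 5 arrays were taken from 639 probe sets past the filter with a log2 range of at least 1, by Pearson's r over the 5 arrays, given as a description. They were Dusp1, a phosphatase of mitogen-activated kinases (r = 0.974), Id3, which blocks DNA binding of helix-loop-helix factors (0.965), Sod3, extracellular superoxide dismutase (0.947), Clu, the secreted chaperone clusterin (0.946), Rph3al, an exocytosis protein (0.945), and Timp1, an inhibitor of metalloproteinases (0.937). Sod3 measured 25.5 and 13.03 after fetal alcohol, 104 on the isocaloric diet and 119 and 103 on the control diet. All 6 were lower on fetal alcohol array 2 than on array 1, as Ttr was. Since they were chosen by r over these arrays, this order largely follows from the choice.

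Those most like Sostdc1 were Gsta1, a glutathione transferase whose probe set can share signal with others of its family (r = 0.969), Ace (0.968), Btd, biotinidase (0.954), Fxyd1, a regulator of the sodium pump (0.948), Lenep, a lens epithelial protein (0.947), and Emp1, an epithelial membrane protein (0.937). Fxyd1 measured 177 and 217 after fetal alcohol, 369 on the isocaloric diet and 328 and 268 on the control diet. All 6 were lower on fetal alcohol array 1 than on array 2 and highest on the isocaloric array, as Sostdc1 was. This order, too, largely follows from choosing them by r. The 5 points share the scaling of each array and the same groups.

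The wider pathways of the 10 genes were counted next. None of the genes tested in these lists passed in limma in any contrast, so the counts are those without overlap and at least 1.5-fold, fetal alcohol against control diet. Of 16 tested genes of ion, water and acid-base transport, 1 was lower, the potassium-chloride cotransporter Slc12a4 (-0.63 ± 0.23), and 0 were higher, with a median of -0.02. On the isocaloric array Slc12a4 measured 78.9, also below both control diet arrays. The next largest were the sodium pump subunit Atp1b2 (-0.40 ± 0.24), the anion exchanger Slc4a3 (0.33 ± 0.28) and the carbonic anhydrase Car3 (-0.30 ± 0.26). Of 5 tested keratin and junction genes, 1 was lower, Ocln, the tight junction protein occludin (-0.87 ± 0.38). It measured 19.5 and 61.5 after fetal alcohol, 48.1 on the isocaloric diet and 77.4 and 71.4 on the control diet, and was thus lower mostly on fetal alcohol array 1. Krt1 had -0.41 ± 0.25, the plaque protein Jup -0.30 ± 0.23 and the junction scaffold Tjp1 0.16 ± 0.26.

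Among carriers, receptors and enzymes of thyroid hormone and retinol, the ligands that Ttr helps to carry, 2 of 14 were lower and 0 higher, with a median of -0.13. The 2 were Aldh1a2, which makes retinoic acid (-0.86 ± 0.33), and Rara, a retinoic acid receptor (-0.84 ± 0.32). Aldh1a2 is also on the meningeal list. On the isocaloric array both lay below the control diet pair too, at 72.5 for Aldh1a2 and 448 for Rara. Crabp2, which binds retinoic acid in the cell, had -0.48 ± 0.22 and the thyroid hormone receptor Thra -0.45 ± 0.20. Of 12 tested genes around prolactin, bone morphogenetic protein and Wnt signalling, 1 was lower and 0 were higher, with a median of 0.03. The lower was Bmp7 (-0.60 ± 0.29), which at 35.2 on the isocaloric array lay below both control diet arrays there too. Stat3, which acts downstream of cytokine receptors, had -0.51 ± 0.25, Bmp6 -0.49 ± 0.23 and the receptor Acvr1 -0.47 ± 0.26.

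Of 6 tested genes of lysophospholipid signalling, to which Enpp2 belongs, 0 were lower and 1 was higher. This was Plpp2, a lipid phosphatase that degrades lysophosphatidic acid, with 120 and 80.3 after fetal alcohol, 191 on the isocaloric diet and 36.2 and 57.7 on the control diet (0.95 ± 0.29). It was highest on the isocaloric array. Lpar1, a receptor for lysophosphatidic acid, had -0.45 ± 0.27, the sphingosine phosphate receptor S1pr2 -0.16 ± 0.24 and Lpar2 0.13 ± 0.28.

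Marker lists of tissues that border the hippocampus were set beside these values. The intensities of the 10 genes, summed over the brightest probe set of each, were 1711 and 611 after fetal alcohol, 6724 on the isocaloric diet and 6228 and 5951 on the control diet. Ttr made up most of the sum except on fetal alcohol array 2. Without it, a sum added after the data were seen, the other 9 genes gave 708 and 542 after fetal alcohol, 1333 on the isocaloric diet and 930 and 1066 on the control diet, or 70.9%, 54.3% and 134% of the control diet mean on fetal alcohol arrays 1 and 2 and the isocaloric array.

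Meningeal and connective tissue markers were also low on fetal alcohol array 2. All 17 of 17 on the array passed the filter and had a negative fetal alcohol minus control diet difference, with a median of -0.48, and 2 were lower without overlap by at least 1.5-fold. The largest differences were those of Col3a1 (-1.14 ± 0.54), Aldh1a2 (-0.86 ± 0.33), Igf2 (-0.74 ± 0.34) and Slc13a3 (-0.71 ± 0.37). The summed intensity of the 17 markers was 9182 and 5812 after fetal alcohol, 7358 on the isocaloric diet and 9543 and 11250 on the control diet. No marker was at 0, and Ptgds and Sparc held the largest parts of each sum. Fetal alcohol array 1 thus had 88.3% of the control diet mean for meninges beside 28.1% for the 10 genes. Array 2 had 55.9% beside 10.03%. Without Ttr, the sum of the other 9 genes was at 70.9% on array 1 and 54.3% on array 2, there close to meninges. On the isocaloric array the meninges sum was at 70.8% while that of the 10 genes was at 110%. The part of meningeal tissue in the result was not tested.

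Ependymal cells line the ventricle beside the plexus. Of 7 markers on the array 4 passed the filter, 0 were lower, and the summed intensity was 2418 and 2827 after fetal alcohol, 2480 on the isocaloric diet and 2592 and 2502 on the control diet. Foxj1, the regulator of motile cilia that also marks plexus epithelium, was under the filter, with 28.4 and 19.1 after fetal alcohol, 33.4 on the isocaloric diet and 49.4 and 40.5 on the control diet. Endothelial and mural markers summed to 952 and 1038 after fetal alcohol, 1194 on the isocaloric diet and 1133 and 1359 on the control diet, with 0 of 9 tested genes lower by the count above. Red blood cell genes summed to 8201 and 5658 after fetal alcohol, 6503 on the isocaloric diet and 6730 and 7630 on the control diet, with 0 of 4 lower.

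Neuron markers summed to 11060 and 10790 after fetal alcohol, 8803 on the isocaloric diet and 10120 and 9473 on the control diet, with a median log2 difference from control diet of 0.05 after fetal alcohol. Of 16 tested, 2 were lower by the count above and 1 was higher. The lower were the transcription factors Neurod1 (-0.63 ± 0.32) and Neurod2 (-0.73 ± 0.25), the higher the surface protein Thy1 (0.87 ± 0.23). On the isocaloric array Neurod1 measured 126 and Neurod2 88.05, both also below the control diet pair. Isocaloric minus control diet was -0.91 ± 0.40 and -0.85 ± 0.30 for these 2, and 0.06 ± 0.28 for Thy1. Glial markers summed to 3881 and 3362 after fetal alcohol, 3227 on the isocaloric diet and 3574 and 3776 on the control diet. The share of plexus tissue in each dissection was not tested.

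**Figure D4:**
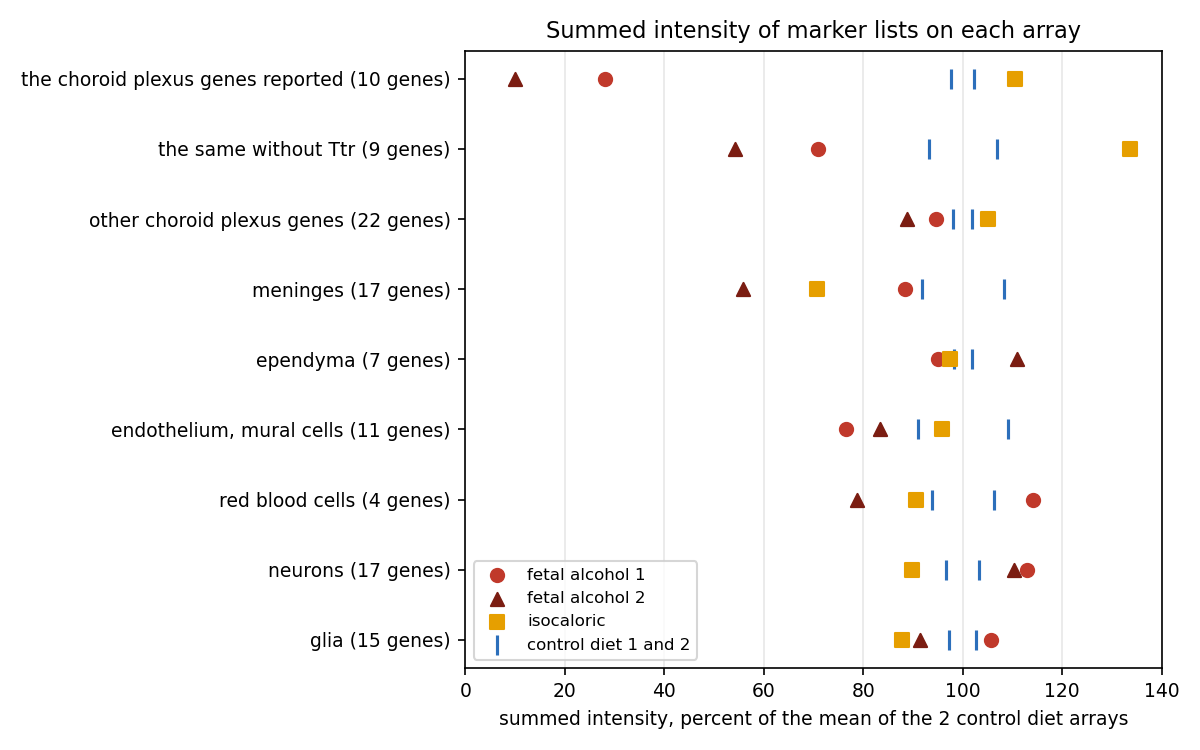
Summed intensity of each marker list on the fetal alcohol and isocaloric arrays and on both control diet arrays, as a percentage of the control diet mean. The choroid plexus genes reported lie at 28.1% and 10.03% on the fetal alcohol arrays and at 70.9% and 54.3% without Ttr, while meninges lie at 88.3% and 55.9%.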

How the data were processed

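Per the labels, each sample was total RNA of rat hippocampus on 1 single-colour array. The deposited intensity values, 1 per probe set and array, are linear and were used as deposited, because their 2% trimmed means lay between 150.19 and 150.22. Which software and scaling made them is not given in the sources used here. After removal of 59 control probe sets, intensities of 8740 probe sets became log2(intensity + 10.605), and the 5244 with a mean log2 value at or above the 40th percentile were fitted over all 5 arrays with an intensity trend, by lmFit and eBayes of limma 3.58.1 in R 4.3.3, with Benjamini-Hochberg adjustment and 2-sided tests at 0.05. The fetal alcohol and control diet pairs gave the spread (2 residual and 6.3 prior degrees of freedom), and the isocaloric array was assumed to vary like them. The fit was tested on simulated data.

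Genes were named from the platform annotation where it gave exactly 1 symbol (7006 probe sets, against 308 with several and 1426 with none), with current symbols looked up by gene identifier for 6985. The 10 genes and all lists were chosen with earlier results of these data known. The genes named are the 10, up to 4 with the largest difference in each list, and the 6 others most like Ttr and like Sostdc1. Gap43, Camk2a, Kcnj13, Kl, Foxj1, Atp1b1, Slc15a2 and Mt1 with Mt1f were named after their values were seen. A list gene stands for its brightest probe set. Alternatives were quantile normalization, equal medians, offsets of 1 and 32, no filter, a filter at the 60th percentile, no intensity trend, each array of a pair left out, and the replicate number as a block.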

Additional observations from a re-analysis of the deposited data

How the results depend on the processing

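The number of probe sets past the threshold in fetal alcohol minus control diet, 0 in the fit reported, was 1 with quantile normalization, 9 with equal medians, 1 with an offset of 32 and 0 to 22 with 1 array left out. For fetal alcohol minus isocaloric it was 3, 3 and 0 to 22 with quantile normalization, equal medians and 1 array left out, and for isocaloric minus control diet 0 to 14 with 1 array left out. Fits without 1 array take their spread from a single pair. With the replicate block the first count was 6, and with the numbers crossed, an alternative added after seeing the data, it was 20. The deviations of same-numbered arrays correlated at -0.113, and this single value does not tell if the numbers mark pairs.

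The median over the choroid plexus probe sets in fetal alcohol minus control diet was -0.52 with no filter, -1.14 with the filter at the 60th percentile and -1.17 to -0.44 with 1 array left out. In fetal alcohol minus isocaloric it was -0.77, -2.28 and -1.39 to -1.01 under the same changes. With the replicate block the first median stayed at -0.90. The count of choroid plexus probe sets lower on both fetal alcohol arrays, 6 of 13, was 5 with the filter at the 60th percentile and 8 of 18 with no filter. These filters change which probe sets are counted. It stayed at 6 under the other alternatives that kept both pairs of arrays. With 1 array of a pair left out, the count rests on the remaining array of that group and is not comparable. In isocaloric minus control diet the second Ttr probe set turned to 0.17 with quantile normalization, 0.01 with equal medians and 0.00 without control diet array 1, and Prlr at L48060_s_at to 0.04, 0.03 and 0.24 under the same 3 changes. Without control diet array 2 the same 2 values were -0.12 and -0.28. The cause was not tested. No choroid plexus probe set passed in isocaloric minus control diet under any alternative.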

Other observations

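Slco1a5, an organic anion transporter of the plexus apical membrane, was under the intensity filter and was picked after its values were seen. It measured 0.764 and 1.26 after fetal alcohol, 26.8 on the isocaloric diet and 9.57 and 6.77 on the control diet, so 4 of the 5 values lay below the offset and carry no order. Cldn3, a tight junction gene also under the filter and picked in the same way, measured 20.1 and 18.2 after fetal alcohol, 39.99 on the isocaloric diet and 25.3 and 56.8 on the control diet.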
